A study of Rattus norvegicus with 22 samples.

Results

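Glucuronosyltransferases (UGTs) and cytosolic sulfotransferases (SULTs) are the enzymes with which hepatocytes attach a glucuronic acid or a sulfate group to steroids, bile acids, bilirubin, thyroid hormone and drugs. The 6 genes described here are Ugt2b, Ugt2a3, Ugt2b7 and Ugt1a5 of the first family and Sult1c2 and Sult1c3 of the second. They were chosen by symbol among 1325 symbols in 1365 transcript rows, the larger of the 2 deposited tables, which holds the males, and each matched 1 row. The smaller table, of 69 rows from females, held 0 of the 6, and values for females were not analysed here.

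The study sequenced liver RNA of Wistar rats aged 110 days born to mothers on either a control (C) diet or an obesogenic diet, the latter group labelled MO for maternal obesity. The males were 6 control offspring and 5 MO offspring, 1 library per animal, and the labels name no other treatment or allele and give no litters. P-values therefore treat these animals as independent, and whether any were littermates could not be checked. Those of the limma model also draw the spread of each row towards that of the others. Values are in RPM, read counts scaled to a common library total and not divided by transcript length, so levels are compared between animals and never between genes. The table had already been selected by the authors: its highest deposited p-value was 0.04964, and 1317 of its rows were lower and 48 higher in MO males. A gene absent from it was not measured here.

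Glucuronidation takes the sugar from UDP-glucuronic acid at the membrane of the endoplasmic reticulum, and sulfation takes the sulfate from the cofactor PAPS in the cytosol. Both make lipophilic molecules soluble enough to leave in bile or urine. The UGT2B genes lie in a cluster of related copies with a complete set of exons each. The UGT1A genes instead join a first exon of their own to shared later exons. Hepatic UGT2B enzymes are known for steroid conjugation. Ugt2b carries the RefSeq synonym Ugt2b2, the name under which the rat enzyme is known for conjugating androsterone, and Wistar rats are known to differ by inheritance in how well their livers do so. Several SULT1C enzymes are known for sulfating hydroxylated aromatic amines.

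In the RefSeq gene order (assembly GRCr8, used for names and order only) Ugt2a3, Ugt2b and Ugt2b7 belong to 1 stretch of chromosome 14 that holds 11 protein-coding Ugt genes and 3 Sult genes. Of these, 3 Ugt and 0 Sult genes were in the table. Sult1c2 and Sult1c3 belong to a stretch of chromosome 9 with 4 Sult genes, of which 3 were in the table, the third being Sult1c2a. Ugt1a5 is 1 of 8 genes of the UGT1A locus, elsewhere on chromosome 9, and was the 1 listed there. Its row is not unequivocal, because its accession belongs to Ugt1a5 in RefSeq while its name and gene number in the deposited table are those of Ugt1a6. How reads that match several copies were counted is not given in the sources used here, so reads of such neighbours may have been split or shared between them.

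RefSeq promoter sequence (GRCr8) was at hand for 5 of the 6 genes, with the exception of Ugt1a5. The 130 bases just before the transcript start are shown for the 3 genes of chromosome 14, because these genes are compared animal by animal below, and for Sult1c2, the sulfotransferase with the largest decrease. All are written from 5′ to 3′ on the strand of the gene, and capitals mark a stretch of 13 bases with the outer letters of the palindrome bound by the liver transcription factor HNF1.
Ugt2b (chr14:20985319-20985448, plus strand): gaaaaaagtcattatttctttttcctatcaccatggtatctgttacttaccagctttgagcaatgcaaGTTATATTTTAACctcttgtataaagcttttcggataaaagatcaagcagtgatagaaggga
Ugt2b7 (chr14:21251405-21251534, plus strand): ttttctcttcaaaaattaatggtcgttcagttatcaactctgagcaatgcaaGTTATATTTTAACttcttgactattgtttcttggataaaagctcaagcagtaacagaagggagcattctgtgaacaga
Ugt2a3 (chr14:20851840-20851969, plus strand): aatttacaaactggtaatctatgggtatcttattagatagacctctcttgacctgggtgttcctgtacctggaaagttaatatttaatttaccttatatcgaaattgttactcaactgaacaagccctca
Sult1c2 (chr9:7436851-7436980, plus strand): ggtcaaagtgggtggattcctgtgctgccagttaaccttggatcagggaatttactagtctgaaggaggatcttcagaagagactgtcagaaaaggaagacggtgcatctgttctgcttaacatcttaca

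The marked letters GTTATATTTTAAC begin 62 bases before the start of Ugt2b and 78 bases before that of Ugt2b7. Searched on both strands in the 250 bases before each start, they were in 7 of 33469 promoter windows (0.0209%), 6 of them of genes named Ugt2b and the seventh of LOC134478834, which lies between Ugt2a3 and Ugt2b. The longest run of letters common to the 250 bases of Ugt2b and Ugt2b7 was TGAGCAATGCAAGTTATATTTTAAC, which contains the shorter motif and was in all 7 of the windows. Of these 7 genes, 2 were in the table, Ugt2b and Ugt2b7. The looser pattern GTTANNNNTTAAC, of which the shorter motif is 1 case, was in 51 windows (0.152%). It was not found in the windows of Ugt2a3, Sult1c2 or Sult1c3. Because it was derived from the stretch shared by Ugt2b and Ugt2b7, its absence does not show that a related site is lacking. The bases shown for Ugt2a3 hold gttaatatttaat, which differs from the pattern in the last letter only. These motifs were picked after the sequences had been seen, and a match of letters is a description and does not show that a factor binds there.

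All 6 genes were lower in MO males, by a median of -1.09 on the log2 scale against -0.58 over all rows. All 6 passed the threshold of the limma fit (adjusted p under 0.05 over the table), as did 96.5% of all rows in this direction, which follows from the selection of the rows. Ugt2b, Sult1c2 and Ugt2a3 fell by 1 or more on the log2 scale, a size reached by 5.2% of rows. In 0 of the 6 genes did all 5 MO animals lie below every control, against 29.9% of rows. It was 3 of 5 MO animals in Ugt2b, Ugt2a3, Ugt2b7, Ugt1a5 and Sult1c2 and 4 of 5 in Sult1c3.

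Library depth, read from the smallest step between low values, was 7890000 to 11170000 reads in controls and 10530000 to 11590000 reads in MO males. Rmrp, an RNA without a poly(A) tail, lay between 36.9 and 51.2 RPM in controls 2, 3, 4 and 6. It lay between 1.20 and 3.11 RPM in controls 1 and 5 and every MO male, so part of the controls stood apart in this RNA. Rmrp was picked outside the gene lists, and a single RNA does not describe the RNA composition at large. Of 50 markers of liver cell types 6 were in the table, all lower in MO males, as were 96.5% of all rows. The 6 markers were Cps1 of hepatocytes, Pdgfrb, Des and Reln of stellate cells and Krt19 and Epcam of bile duct cells. Their summed level, most of it Cps1, was 920 to 1967 RPM in controls and 832 to 951 RPM in MO males. It therefore says little about stellate or bile duct cells. Albumin and the other 4 hepatocyte markers were not in the table, so the tissue label was not checked on them. No listed marker was of Kupffer cells, sinusoidal endothelium, lymphocytes, neutrophils or erythroid cells. Their part in the results was not tested, and in bulk liver fewer cells of a type cannot be told apart from less RNA per cell.

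**Figure D1:**
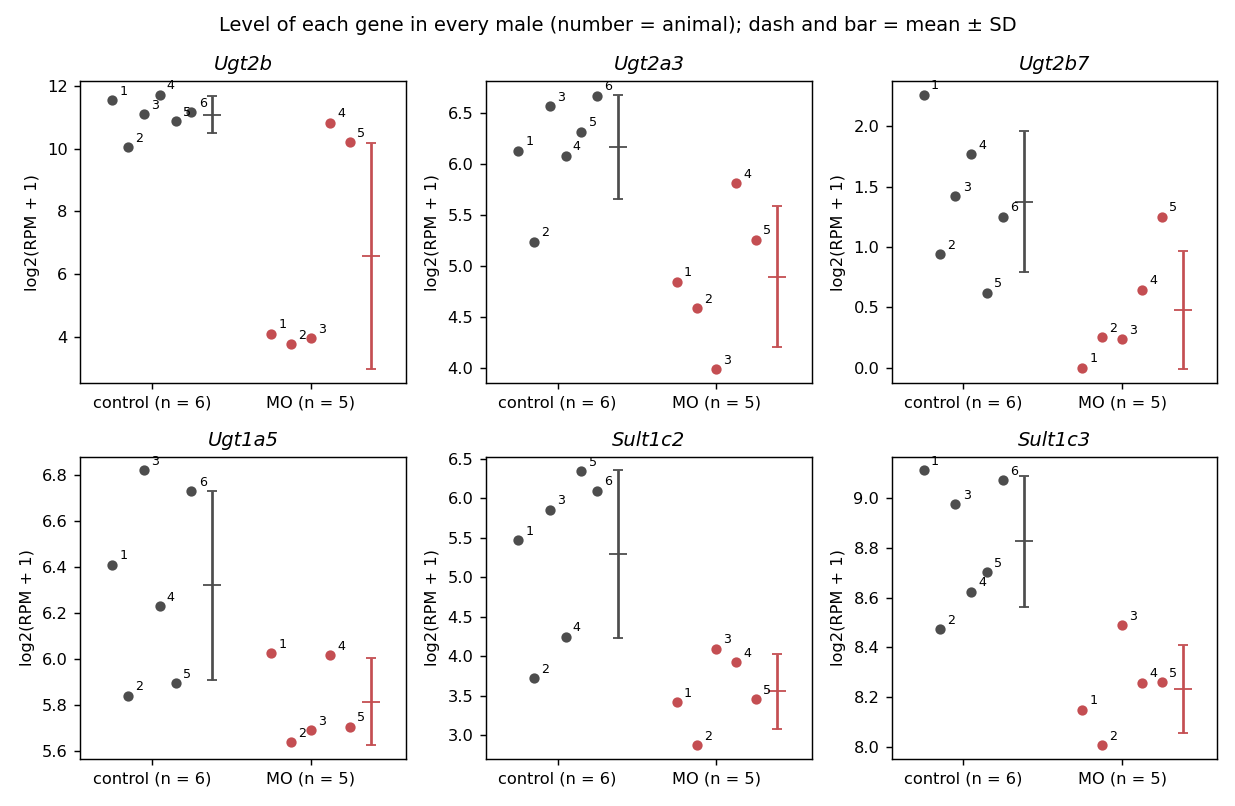
Level of each of the 6 genes in the 6 control (grey) and 5 MO (red) males as log2(RPM + 1), with the animal's number beside each point and the mean ± SD of the group to its right. Each panel has its own axis, which does not start at 0; MO males 1 to 3 lie at 3.76 to 4.09 for Ugt2b and MO males 4 and 5 at 10.8 and 10.2.

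Ugt2b showed the largest decrease of the table as a mean of log2 values. By the ratio of the group means in RPM it was 3.79-fold lower, and Ugt2b7 and Sult1c2 were 3.86-fold and 4.13-fold lower. Control males were at 1060 RPM (lowest), 2243 RPM (median) and 3373 RPM (highest). Of the MO males, numbers 1 to 3 had only 16.0, 12.5 and 14.5 RPM, whereas numbers 4 and 5 had 1820 and 1175 RPM. The first 3 thus had 0.545% to 0.695% of the control mean, and the last 2, at 79.1% and 51.1%, lay within the control range. The low values rested on about 132 to 177 reads per library, so reads were assigned to the gene in every animal. Whether these reads came from related copies was not tested.

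The 6 controls averaged 2302 ± 822 RPM (SD) and the 5 MO males 608 ± 844 RPM (SD), and the SD of the MO group exceeded its mean. On the log2 scale the change was -4.51 ± 0.96 (SE), with an adjusted p of 0.0018 in limma (exact two-sided permutation p = 0.0087, where 6 against 5 animals allow no p below 0.0022). As a mean over animals at 2 levels, it matches none of the 5 MO animals. The genotype of the animals was not analysed here. When its spread was not drawn towards that of other rows (unmoderated model), the SE was 1.48 and the adjusted p 0.022. The adjusted p was 5.29e-05 to 0.0881 over the alternatives.

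The step in Ugt2b was the widest within the MO group of all 1365 rows. The split of Ugt2b was known before these genes were examined, so its rank is a description. Between the MO animals that were neighbours in level, the widest step was 6.11 on the log2 scale for Ugt2b, against 1.45 for Gemin6, the next row, and a median of 0.32. The controls had no such gap. Their widest step in Ugt2b was 0.83, at rank 48 of the rows.

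**Figure D2:**
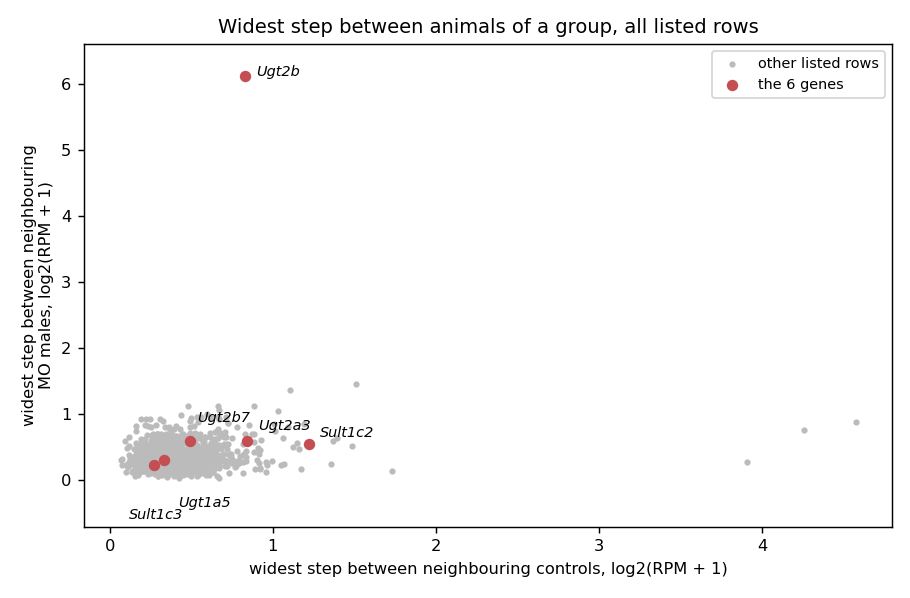
Each point is 1 of the 1365 rows, placed by the widest step between neighbouring animals among the 6 controls (x axis) and among the 5 MO males (y axis), both as differences of log2(RPM + 1). Ugt2b, at 0.83 and 6.11, stands far above the other rows, and the other 5 genes (red) have steps of 0.23 to 0.60 among MO males. The split of Ugt2b was known beforehand.

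Ugt2a3, a UGT2A enzyme whose human counterpart is known to conjugate bile acids, lies near Ugt2b. Control males were at 36.7 RPM (lowest), 74.0 RPM (median) and 101.0 RPM (highest). MO males 1 to 5 were at 27.7, 23.0, 14.8, 55.2 and 37.3 RPM. MO males 4 and 5 were again the highest of their group, at 74.1% and 50.05% of the control mean, and exceeded the lowest control, number 2.

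Ugt2a3 averaged 74.5 ± 22.9 RPM (SD) over the 6 controls and 31.6 ± 15.5 RPM (SD) over the 5 MO males. This was a change of -1.27 ± 0.27 (SE) on the log2 scale, with an adjusted p of 0.0020 in limma and 0.013 unadjusted in the exact permutation test. Its spread on the log2 scale among MO males, an SD of 0.69, was at rank 20 of the table. The call was lost after each library was centred on its median over the listed rows, and the adjusted p was 0.00016 to 0.309 over the alternatives. Unlike Ugt2b it showed no empty range between low and high MO animals, with a widest step of 0.60.

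Ugt2b7 was close to the limit of detection. Control males were at 0.537 RPM (lowest), 1.53 RPM (median) and 3.80 RPM (highest). MO males 1 to 5 were at 0, 0.190, 0.176, 0.566 and 1.38 RPM, or about 0, 2, 2, 6 and 16 reads. MO males 4 and 5 were the highest of the group here too and lay in the control range, while the other 3 were at or under the 3 reads below which a level cannot be told from 0.

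Ugt2b7 averaged 1.79 ± 1.18 RPM (SD) over the 6 controls and 0.463 ± 0.553 RPM (SD) over the 5 MO males. On the log2 scale the change was -0.90 ± 0.26 (SE), with an adjusted p of 0.0073 in limma (exact two-sided permutation p = 0.030). At this level the size depends on the pseudocount, and it was -2.07 with 0.1 RPM added in place of 1. The call was lost with depth as a covariate (limma adjusted p = 0.0762) and against control males 1 and 5 alone (adjusted p = 0.0534). It was also lost after centring, with a change of -0.32 (adjusted p = 0.997). The adjusted p was 0.0038 to 0.997 over all alternatives.

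Ugt1a5 belongs to the UGT1A locus, whose products include the enzyme that conjugates bilirubin. Control males were at 56.3 RPM (lowest), 79.0 RPM (median) and 111.8 RPM (highest). MO males 1 to 5 were at 64.2, 48.8, 50.6, 63.7 and 51.2 RPM. The highest MO animals were numbers 1 and 4, at 78.6% and 78.0% of the control mean, so the order was not that of Ugt2b, and the MO group was narrow, with a CV of 13.6% against 28.5% in controls.

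Ugt1a5 averaged 81.6 ± 23.2 RPM (SD) over the 6 controls and 55.7 ± 7.56 RPM (SD) over the 5 MO males. This was a change of -0.50 ± 0.20 (SE) on the log2 scale, with an adjusted p of 0.018 in limma and 0.032 unadjusted in the exact permutation test. This was the smallest change of the 6. The call was lost without control male 3 (limma adjusted p = 0.0558) and with depth as a covariate (adjusted p = 0.183). It was also lost against control males 1 and 5 alone (adjusted p = 0.166). After centring the sign reversed, with a change of 0.080 (adjusted p = 0.997). The adjusted p was 0.0086 to 0.997 over all alternatives.

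Sult1c2, which carries the RefSeq synonym sultK1, had the decrease of rank 9 in the table. Control males 1 to 6 were at 43.3, 12.2, 57.0, 18.0, 80.4 and 67.5 RPM. MO males 1 to 5 were at 9.69, 6.31, 16.1, 14.2 and 9.96 RPM. Here the control group was the uneven one, with controls 2 and 4 inside or just above the MO range and the other 4 at 43.3 RPM or more.

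Sult1c2 averaged 46.4 ± 27.2 RPM (SD) over the 6 controls and 11.2 ± 3.89 RPM (SD) over the 5 MO males. On the log2 scale the change was -1.74 ± 0.36 (SE), with an adjusted p of 0.0016 in limma and 0.017 unadjusted in the exact permutation test. The SD of the controls on the log2 scale, 1.07, was at rank 8 of the table, whose median was 0.31. With depth as a covariate the change was -2.81, 1.6 times as large, and controls 2 and 4 were the shallowest libraries, with 8700000 and 7890000 reads. In the unmoderated model the SE was 0.52 and the adjusted p 0.018. The call was lost after centring, within a range of adjusted p of 2.315e-05 to 0.117 over the alternatives.

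Sult1c3, listed in RefSeq also as St1c1 and HAST-I, is known as a sulfotransferase of hydroxylated arylamines that predominates in male rat liver. Control males were at 354 RPM (lowest), 459 RPM (median) and 552 RPM (highest). MO males 1 to 5 were at 283, 256, 358, 305 and 306 RPM. The groups were separate but for MO male 3, which lay 4.44 RPM above control male 2.

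Sult1c3 averaged 459 ± 82.4 RPM (SD) over the 6 controls and 302 ± 37.7 RPM (SD) over the 5 MO males. This was a change of -0.59 ± 0.17 (SE) on the log2 scale, with an adjusted p of 0.0075 in limma and 0.0065 unadjusted in the exact permutation test. After centring the call was lost, and the adjusted p ranged from 0.0038 to 0.997 over the alternatives. The neighbouring Sult1c2a, not one of the 6 genes, was at 158 to 335 RPM in controls and at 106 to 157 RPM in MO males. Every MO animal was below every control, as in 29.9% of all rows. Sult1c2a changed by -0.76 ± 0.20 (SE, limma adjusted p = 0.0048). All 3 listed genes of this SULT1C stretch were lower in MO males, and Sult1c2, with 13.6% to 34.7% of its control mean in the 5 animals, was lower relative to controls than Sult1c3, with 55.8% to 78.1%.

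**Figure D3:**
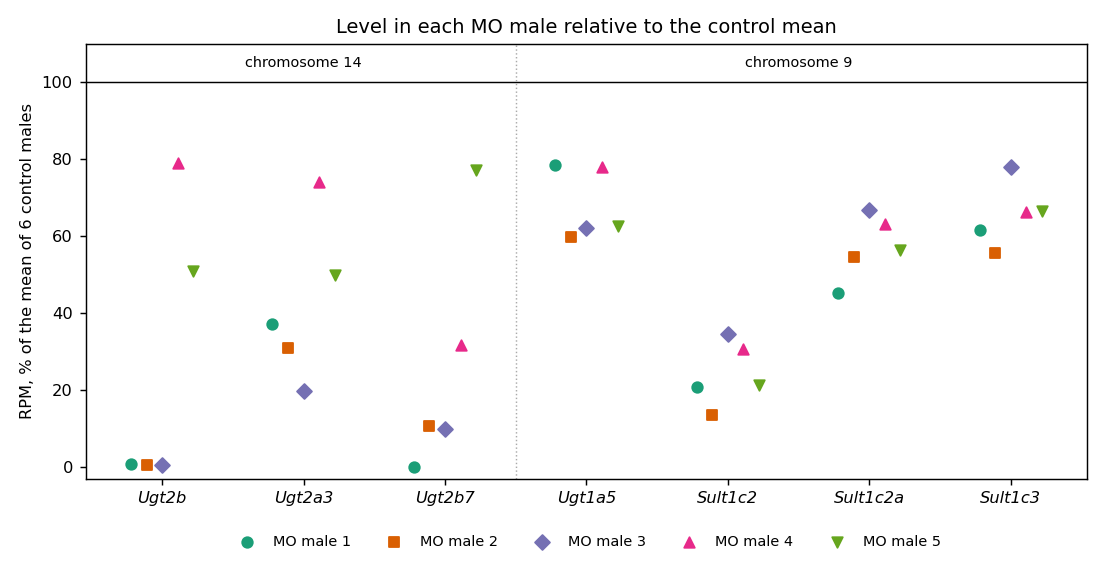
RPM in each MO male as a percentage of the mean of the 6 control males (line at 100) for the 6 genes and Sult1c2a, ordered by chromosome, with a symbol per animal. MO males 4 and 5 are the highest for the 3 genes of chromosome 14, at 31.7% to 79.1%, and are not the highest pair for any of the 4 genes of chromosome 9.

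The animals were therefore compared in order. MO males 4 and 5 were the highest of their group in Ugt2b, Ugt2a3 and Ugt2b7 and in none of Ugt1a5, Sult1c2 and Sult1c3. They were the highest pair in 70 of all 1365 rows (5.13%) and in 4 of the 48 rows of chromosome 9 (8.33%). Outside the 3 genes it was 2 of the 28 rows of chromosome 14 (7.14%), close to the share over all rows. These were Ddc, the aromatic amino acid decarboxylase, and the growth factor receptor Pdgfra, named here after their order had been seen. Whether neighbouring copies shared reads was not tested, so the 3 orders may not be independent.

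For a finer view, the share of pairs of animals ranked alike by a pair of genes was counted within groups, 10 pairs of MO males and 15 pairs of controls. Among MO males Ugt2b and Ugt2a3 ranked 9 of 10 pairs alike, Ugt2a3 and Ugt2b7 7, and Ugt2b and Ugt2b7 6. The medians with 1324 other genes were 6 for Ugt2b, 5 for Ugt2a3 and 4 for Ugt2b7. Ugt2b ranked 8, 7 and 6 of 10 pairs like Ugt1a5, Sult1c2 and Sult1c3. In controls, Ugt2b and Ugt2a3 ranked 8 of 15 pairs alike, equal to the median of 8 for Ugt2b, and Ugt2b and Ugt2b7 ranked 12. Ugt2a3 and Ugt2b7 ranked 7 of 15 control pairs alike, against control medians of 11 for Ugt2a3 and 8 for Ugt2b7. For Ugt2b7 the order of MO males 1 to 3 rests on about 0, 2 and 2 reads, so these animals cannot be ranked by it. This limits every count with Ugt2b7, here and below. Whether the counts differ between the groups was not tested.

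Of all 25 pairs within groups, Sult1c2 and Sult1c3 ranked 19 alike, and Sult1c2a ranked 20 alike with each of them, against a median of 16 for Sult1c2 and for Sult1c3 over the table. Ugt2b and Ugt2b7 ranked 18 alike, against medians of 14 and 12 over the table. Ugt2a3 ranked 19 like Ugt1a5, 19 like Sult1c2 and 18 like Sult1c2a, against a median of 16. No difference between these counts was tested.

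Over the whole table, the genes whose order of animals was most like that of Ugt2b were Lyplal1 and the clock factor Npas2, each with 22 of 25 pairs alike, and the paraoxonase Pon3 with 21. For Ugt2a3 they were Pdgfra and Rmdn2 with 24 and Commd2 with 23, and for Ugt2b7 Aldh5a1 with 21 and Hsd17b6 and Prkag2 with 20. Ugt1a5 was most like LOC100233176, Mdp1 and Meox2, with 23 each. Sult1c2 was most like Cyp2u1 and Cldn1 with 24 and Kdm6b with 23, and Sult1c3 was most like Litaf with 25, Gas2 and Mbl2 with 24. None of the 6 genes was among the 3 most alike of another.

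Summed, the 6 genes took 1520 to 3928 RPM of the reads in controls and 347 to 455 RPM in MO males 1 to 3, with 2259 and 1581 RPM in MO males 4 and 5. Without Ugt2b the sum was 460 to 813 RPM in controls and 334 to 440 RPM in MO males. Most of this sum was Sult1c3, and control male 2, the lowest control, lay just above the highest MO male. This is a description, since each row had been selected for a difference.

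After each library was centred on the median of the listed rows, which removes a shift of -0.58, 0 of the 6 genes passed, as did 1.76% of all rows in the lower direction. Ugt2b was at -3.93 ± 1.19 (SE, limma adjusted p = 0.0881), Sult1c2 at -1.15 ± 0.37 (SE, adjusted p = 0.117) and Ugt2a3 at -0.69 ± 0.27 (SE, adjusted p = 0.309). Ugt2b7 was at -0.32, Sult1c3 at -0.0095 and Ugt1a5 at 0.080, so the last 2 changed by as much as the typical listed row. On this scale 48 rows were higher and 24 lower past the threshold, against 48 and 1317 on the deposited scale. The table holds selected rows alone, so its median is not that of the transcriptome, and which scale is nearer to the RNA per cell was not tested.

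**Figure D4:**
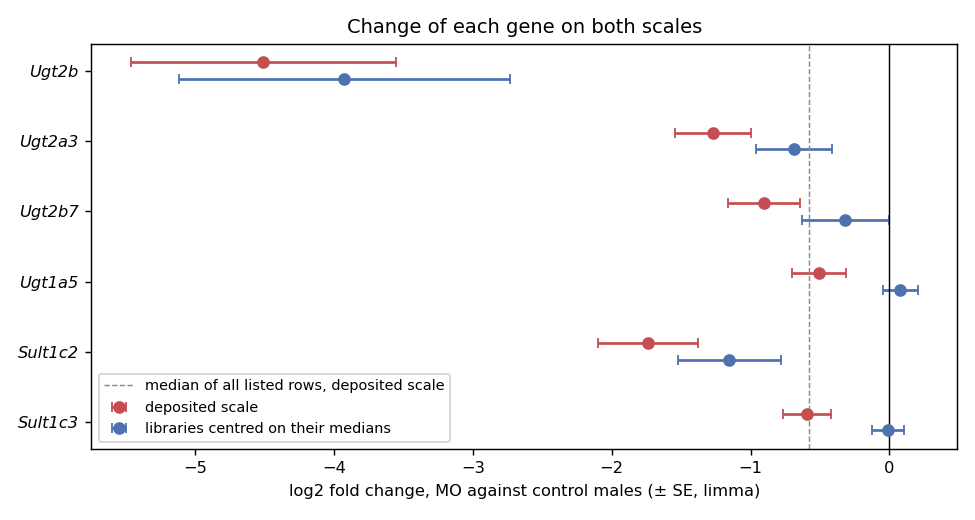
Log2 fold change of each gene between MO and control males (limma, ± SE) on the deposited scale (red) and after centring each library on its median (blue). The dashed line is the median of all rows on the deposited scale, -0.58; Ugt1a5 and Sult1c3 lie at it, and Ugt2b, Sult1c2 and Ugt2a3 lie to the left of it.

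Of 147 genes on 8 lists of the pathway 31 were in the table, the 6 genes included, and 30 of these were lower, as were 96.5% of all rows. All passed the limma threshold, by the same selection, so the counts per list that follow are those of the table at large. Of the 24 UGT genes 4 were listed, all lower, with a median of -1.09, and of the 16 SULT genes 3, all lower, with a median of -0.76.

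For the supply of cofactors, 3 of 8 genes around UDP-glucuronic acid were listed, all lower, among them Nudt14 at -0.53 and Pgm1 at -0.48. Neither of these was below the typical row after centring, and Ugdh, which makes the donor, was not in the table. Of 10 genes around PAPS 3 were listed, all lower. Papss2, the synthase of PAPS, averaged 161 ± 23.8 RPM (SD) in the 6 controls and 99.1 ± 13.5 RPM (SD) in the 5 MO males. This is -0.69 ± 0.17 (SE) on the log2 scale, and every MO animal was below every control, as in 29.9% of all rows. The Golgi transporter of PAPS, Slc35b2, was at -0.55 and the sulfite oxidase Suox at -0.54. After centring Papss2 was at -0.11, Slc35b2 at 0.039 and Suox at 0.048.

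Of 10 genes that remove conjugates 3 were listed, all lower: Gusb, the lysosomal glucuronidase (-0.66 ± 0.17, SE), the sulfatase Arsa (-0.80 ± 0.18, SE) and Sumf2 (-0.50 ± 0.18, SE). Of 14 transporters of conjugates and bile acids 2 were listed, both lower, with the uptake transporter Slco1b2 at -0.99 ± 0.24 (SE, limma adjusted p = 0.0036) and Slc10a1 at -0.60 ± 0.21 (SE).

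Of 26 regulators 5 were listed, all lower. The dioxin receptor Ahr, which drives UGT1A genes, was at 6.32 RPM (lowest), 12.03 RPM (median) and 18.4 RPM (highest) in controls and at 2.43, 1.99, 9.70, 8.49 and 3.37 RPM in MO males 1 to 5. Its highest MO animals were numbers 3 and 4, the highest pair in 24.8% of all rows. On the log2 scale Ahr changed by -1.19 ± 0.30 (SE), with an adjusted p of 0.0040 in limma. Stat5b and Stat5a, which relay growth hormone signals, were each at -0.61, and Nr1h3 and Nfe2l2 at -0.54 and -0.53.

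Of 39 other conjugating enzymes 8 were listed, 7 lower and 1 higher. Acsm5, an acyl-CoA synthetase, averaged 128 ± 29.6 RPM (SD) in the 6 controls and 53.7 ± 18.5 RPM (SD) in the 5 MO males. Each of these MO males was below every control, as in 29.9% of all rows. Gnmt, which methylates glycine, was at -1.04 ± 0.30 (SE) and the glutathione transferase Gstm2 at -0.84 ± 0.21 (SE). Nat8 was the 1 gene of the lists that was higher (1.79 ± 0.39, SE, limma adjusted p = 0.0020). Of the 31 listed genes, 2 passed after centring, Acsm5 and Nat8, as did 5.27% of all rows.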

How the data were processed

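Liver RNA of 11 male rats was analysed. Per the submitters' processing notes STAR 2.3.1j, Partek and genome build rn5 were used, without roles. The authors deposited values per animal in RPM with 1 added, a unit inferred from the values because the headers name none: the lowest is 1, and 81.4% to 86.6% of values under 9 RPM per library were whole multiples of 1 step within 0.02 of a read. The remaining fractions precluded a test on reads. The authors also deposited the size of the log2 change and unadjusted p-values, both of which could be recovered from the values in 1365 of 1365 rows.

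The model, limma-trend (limma 3.58.1 in R 4.3.3), took all 1365 rows as log2(RPM + 1), hence with a pseudocount of 1, and no filter. Fold changes are on this scale, which understates changes of low genes. P-values were Benjamini-Hochberg adjusted over the table (threshold 0.05). Since rows were selected by the authors for a difference, this is no false discovery rate, and limma's p-values are too small. Permutation tests were exact and two-sided over 462 splits. The fit was tested on simulated data with a common spread for all rows and no selection of rows. That test does not cover selected rows or a split like that of Ugt2b.

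The 6 genes and the gene lists were chosen with earlier results of these data known. Named were the 6 genes, up to 4 listed genes per list and, per gene, the 3 with most within-group pairs of animals ranked alike. Alternatives were other pseudocounts (0.1, 0.5), a filter (mean of 1 RPM), centring, 1 row per transcript, a replicate block, leaving out each animal, other tests, depth, and control males 1 and 5 alone. Female values were not analysed here.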

Additional observations from a re-analysis of the deposited data

How the results depend on the processing

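All 6 genes stayed lower in MO males under the alternatives run, except Ugt1a5 after centring. Centring on library medians left 0 of the 6 past the threshold and 72 rows, 24 of them lower, in place of 1365 and 1317. Log2 fold changes were then -3.93 for Ugt2b, -0.69 for Ugt2a3, -0.32 for Ugt2b7, 0.080 for Ugt1a5, -1.15 for Sult1c2 and -0.0095 for Sult1c3. With depth as a covariate 632 rows passed, 600 lower, and 4 of the 6 genes, with Ugt2b7 at -0.73 and Ugt1a5 at -0.41 no longer past it. Against control males 1 and 5 alone 531 rows passed, 493 lower, and 4 of the 6 genes, with Ugt2b7 at -0.96 and Ugt1a5 at -0.34 not. The cause of each loss was not tested.

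When each animal was left out in turn, Ugt1a5 ranged from -0.60 to -0.41 and lost its call without control male 3. Ugt2b ranged from -5.58 (without MO male 4) to -3.81 (without MO male 2) and kept its call, as did the other 4 genes. The 6 genes also passed with the exact permutation test, with the unmoderated model, with pseudocounts of 0.1 and 0.5, with the filter on low values and with 1 row per transcript. With the replicate number as a block over animals 1 to 5, 6 of the 6 genes and 1343 rows passed. Same-numbered controls and MO males did not clearly deviate together (correlations of -0.098 to 0.154 over rows). This cannot exclude a pairing, and the labels name none. The MO values of Ugt2b7 rest on 0 to 16 reads, so depth limits them most among the 6 genes, and the depth covariate also moved Sult1c2, to -2.81.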
